A study of Mus musculus with 2 samples.

Results

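Semaphorins are guidance proteins that cells secrete or carry on their surface, and plexins are the receptors that pass their signal into the cell. Neuropilins are co-receptors that bind the secreted class 3 semaphorins and hand them to A-type plexins or to plexin D1, and they also bind vascular endothelial growth factors. The family is known for guiding growing axons, and in skin and vessels for patterning nerves, capillaries and lymphatics. The genes described here are all rows of the deposited gene list whose symbol starts with Sema and a digit or with Plxn, together with Nrp1 and Nrp2. These are 34 of 27998 rows: 20 semaphorins, 9 plexins, 2 neuropilins and 3 antisense transcripts of Plxna4. The semaphorins fall into 7 genes of class 3, 6 of class 4, 2 of class 5, 4 of class 6 and 1 of class 7. Of the 34 rows, 31 held at least 20 UMIs (unique molecular identifiers, each counted as 1 RNA molecule). The remaining 3 were too low to describe: Plxna4os1 held 15 UMIs in all, Plxna4os2 held 1 UMI and Plxna4os3 held 0 UMIs.

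The cells were Tomato+ cells sorted from the dermis of healed mouse wounds and profiled by droplet single-cell RNA sequencing that counts the 3′ ends of transcripts. The control library came from SM22rtTA; tetO-Cre; R26-Tomato mice, and the SM22-SmoM2 library from SM22rtTA; tetO-Cre; R26-SmoM2/Tomato mice, which also make SmoM2, a constitutively active form of the Hedgehog (Hh) transducer Smoothened. In both genotypes the SM22 (Tagln) promoter, active in smooth muscle and in contractile wound fibroblasts, drives rtTA, so that the alleles are switched on only in cells in which that promoter has been active, and in their progeny. Mice were 4 to 5 weeks old, received chow that held doxycycline at 20 g/kg from day 1 after wounding, and gave tissue 3 days after the wound had closed over. Wounds of several mice were pooled, and each genotype is 1 library, so no difference between the genotypes has a replicate check. Values are therefore given without a p-value, as UMIs per 1000000 UMIs of the same lineage and library (CPM), with exact 95% intervals that cover counting error only and not the variation between mice.

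The control library kept 2856 cells with 30103855 UMIs and the SM22-SmoM2 library 1792 cells with 17814222 UMIs, at medians of 8607.5 and 8837.5 UMIs per cell. Clusters were named from marker genes alone and are endothelial-like, Schwann-like, fibroblast-like, muscle-like and immune-like, written below without that ending. In that order they held 702, 677, 1042, 273 and 81 control cells and 270, 294, 1098, 94 and 33 SM22-SmoM2 cells. All 6 markers fixed for each lineage were detected in it in both libraries, with lower sums in the SM22-SmoM2 library, which ranged from 20912 CPM against 36298 CPM in fibroblasts to 9792 CPM against 9978 CPM in muscle. Muscle here means cells with Rgs5 and Notch3, genes known from the mural cells of vessels, and the skeletal muscle markers were at 0 UMIs in them. The Hh targets Gli1 and Ptch1 measured 5.61 and 12.3 CPM in control fibroblasts and 33.2 and 147 CPM in SM22-SmoM2 fibroblasts. Smo measured 52.6 and 57.1 CPM there, and transgenic and endogenous Smo cannot be told apart. In endothelial, Schwann, muscle and immune cells Gli1 had at most 5 UMIs in either library. Ptch1 measured 14.8 and 20.2 CPM in control and SM22-SmoM2 endothelial cells and 13.2 and 18.8 CPM in Schwann cells, with overlapping intervals. In muscle the Ptch1 intervals, 4.86 to 13.8 CPM and 15.7 to 46.3 CPM, did not overlap. Immune cells had 2 and 5 UMIs of Ptch1. Whether Hh signalling was active in these lineages was not tested. The fibroblasts of the libraries also sat in different clusters. Control cells lay mostly in clusters led by Dlk1, Mmp3 and Crabp1, SM22-SmoM2 cells mostly in clusters led by Penk and Wif1, and of the cells whose sex could be read 76.3% and 94.4% were male. The part of these differences in the results below was not tested except where values within a sub-cluster or a sex are given.

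Members took 845 CPM of all control UMIs and 645 CPM of all SM22-SmoM2 UMIs, and the lineages differed in how much of the family they expressed. Members took the largest share of UMIs in endothelial cells, at 1376 CPM and, in the SM22-SmoM2 library, 1180 CPM. Schwann cells followed with 974 and 810 CPM, muscle with 707 and 782 CPM, fibroblasts with 542 and 515 CPM, and immune cells with 497 and 487 CPM. The classes were unevenly spread. Secreted class 3 semaphorins summed to 443 and 359 CPM in Schwann cells, 238 and 160 CPM in fibroblasts and 72.1 and 46.7 CPM in endothelial cells. The neuropilins that bind them summed to 734 and 598 CPM in endothelial cells against 143 and 174 CPM in fibroblasts.

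**Figure D1:**
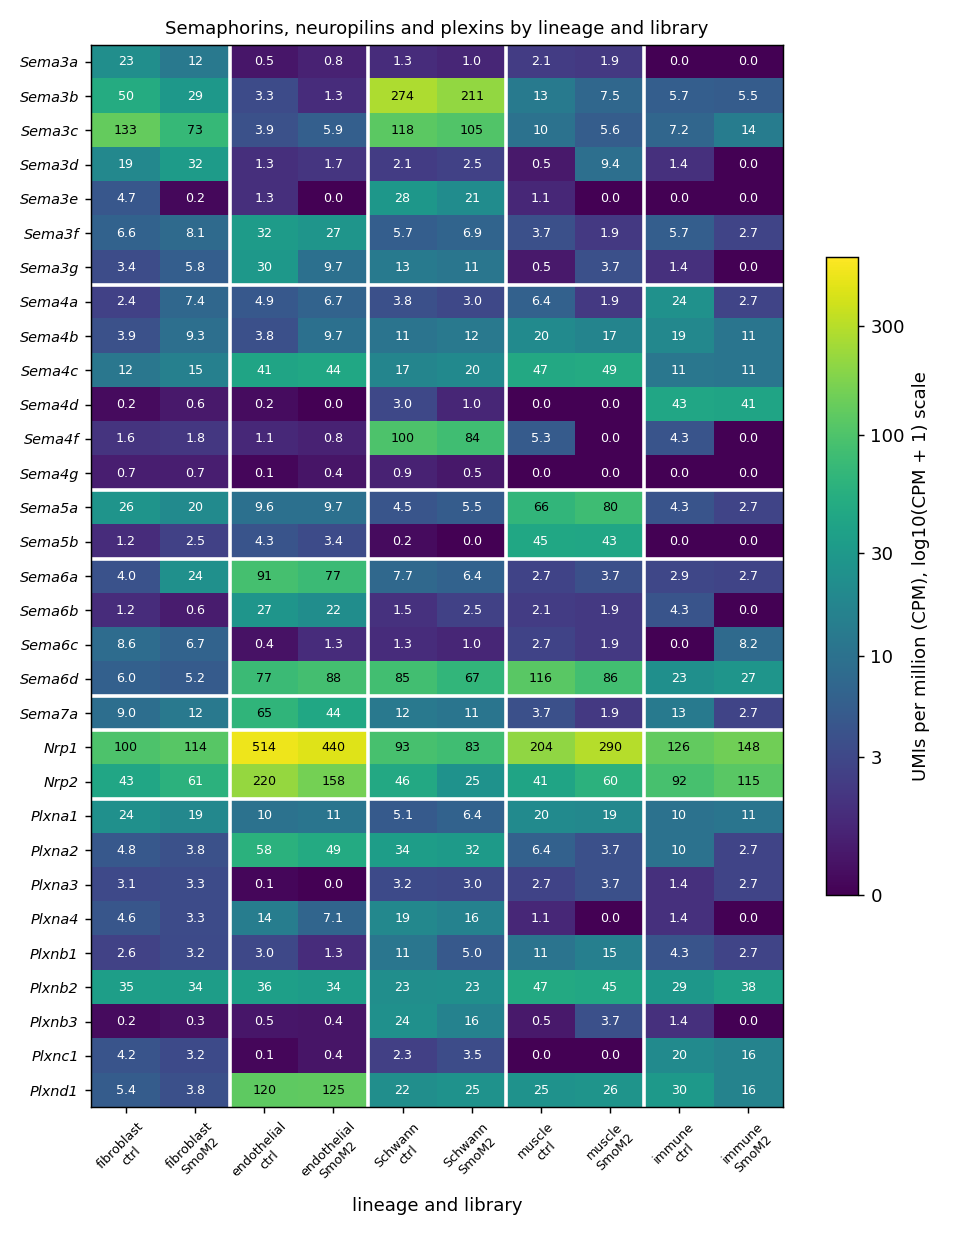
Level of each semaphorin, neuropilin and plexin with at least 20 UMIs (rows) in each lineage and library (columns), in CPM printed in each cell and coloured on a log10(CPM + 1) scale. Sema3a and Sema3d are brightest in fibroblasts, Sema3b and Sema4f in Schwann cells, Sema5a and Sema5b in muscle, Sema4d in immune cells, and Nrp1, Nrp2, Plxnd1 and Sema6a in endothelial cells.

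A member was called highest in a lineage when its CPM there was at least 2-fold above that of the next lineage in both libraries, and 15 of the 31 members met this. Endothelial cells were highest for Plxnd1, Sema3f, Sema6a, Sema6b and Sema7a, 16.1% of the members, where 4.52% of the 14610 genes with as many UMIs were highest in endothelial cells. Schwann cells were highest for Plxnb3, Sema3b, Sema3e and Sema4f (12.9% of the members, 3.66% of all genes). Fibroblasts were highest for Sema3a and Sema3d (6.45%, against 3.22%), muscle for Sema5a and Sema5b (6.45%, against 2.48%), and immune cells for Plxnc1 and Sema4d (6.45%, against 3.95%). Levels are compared only for 1 gene between lineages, because UMIs at 3′ ends do not compare between genes. Where a count was 0, the limit it allows is the CPM of 3 UMIs, which was 0.219 and 0.240 CPM in control and SM22-SmoM2 fibroblasts, 1.59 and 5.61 CPM in muscle, 0.638 and 1.49 CPM in Schwann cells, 0.366 and 1.26 CPM in endothelial and 4.31 and 8.21 CPM in immune cells.

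Of the secreted class 3 ligands, Sema3a, a repellent of sensory and sympathetic axons, was a fibroblast transcript. Sema3a stood at 22.7 CPM in control fibroblasts, 2.12 in muscle, 1.28 in Schwann, 0.488 in endothelial and 0 in immune cells, and at 12.2, 1.87, 0.991, 0.841 and 0 CPM in the same lineages of the SM22-SmoM2 library. Sema3d had the same leading lineage. Sema3d measured 18.7 CPM in control fibroblasts and between 0.531 and 2.13 CPM in the 4 other lineages. In the SM22-SmoM2 library Sema3d measured 32.1 CPM in fibroblasts, 9.35 in muscle, 2.48 in Schwann, 1.68 in endothelial and 0 in immune cells. Sema3c, which acts in heart and vessel patterning, was shared by fibroblasts and Schwann cells. Sema3c stood at 133 CPM in control fibroblasts, 118 in Schwann, 10.1 in muscle, 7.18 in immune and 3.90 in endothelial cells, and at 72.5, 105, 5.61, 13.7 and 5.89 CPM in the SM22-SmoM2 library, so that Schwann cells led there.

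Sema3b and Sema3e were Schwann transcripts. Sema3b measured 274 CPM in control Schwann cells, 49.7 in fibroblasts, 12.7 in muscle, 5.75 in immune and 3.29 in endothelial cells, against 211, 29.3, 7.48, 5.47 and 1.26 CPM in the SM22-SmoM2 library. Sema3e, the ligand that can bind plexin D1 without a neuropilin, measured 28.5 CPM in control Schwann cells, 4.66 in fibroblasts, 1.34 in endothelial, 1.06 in muscle and 0 in immune cells. In the SM22-SmoM2 library Sema3e measured 21.3 CPM in Schwann cells, 0.160 CPM (2 UMIs) in fibroblasts and 0 UMIs in the 3 other lineages. Sema3f, a ligand of neuropilin 2, and Sema3g were led by endothelial cells in the control library. Sema3f stood at 32.1 CPM in control endothelial cells, 6.56 in fibroblasts, 5.75 in immune, 5.74 in Schwann and 3.72 in muscle cells, and at 27.3, 8.09, 2.74, 6.94 and 1.87 CPM in the SM22-SmoM2 library. Sema3g stood at 29.6 CPM in control endothelial cells, 12.97 in Schwann, 3.43 in fibroblasts, 1.44 in immune and 0.531 in muscle cells, and at 9.67, 11.4, 5.77, 0 and 3.74 CPM in the SM22-SmoM2 library. There the Schwann and endothelial levels of Sema3g lay within counting error of each other (log2 ratio 0.24, interval -0.66 to 1.14).

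The class 4 ligands, which span the membrane, were mostly spread over several lineages, with Sema4f and Sema4d as the exceptions. Sema4f measured 99.9 CPM in control Schwann cells and between 1.10 and 5.31 CPM in the 4 other lineages, against 84.2 CPM in Schwann cells and at most 1.84 CPM elsewhere in the SM22-SmoM2 library. Sema4d, which lymphocytes and other leukocytes carry and which signals through plexin B1, had 79 UMIs in all and reached 43.1 and 41.0 CPM in immune cells, with at most 2.98 CPM in any other lineage. Sema4g had 30 UMIs in all and at most 0.850 CPM in any lineage. Sema4c, a ligand of plexin B2, stood at 46.7 CPM in control muscle, 41.1 in endothelial, 17.4 in Schwann, 11.6 in fibroblast and 11.5 in immune cells, and at 48.6, 43.7, 19.8, 15.3 and 10.9 CPM in the SM22-SmoM2 library. Muscle and endothelial levels of Sema4c lay within counting error of each other in both libraries. Sema4b measured 20.2 CPM in control muscle, 18.7 in immune, 10.8 in Schwann, 3.86 in fibroblast and 3.78 in endothelial cells, against 16.8, 10.9, 12.4, 9.29 and 9.67 CPM in the SM22-SmoM2 library. Sema4a, known from immune cells, measured 24.4 CPM (17 UMIs) in control immune cells, 6.37 in muscle, 4.88 in endothelial, 3.83 in Schwann and 2.40 in fibroblast cells. Its SM22-SmoM2 levels were 2.74 CPM (1 UMI) in immune cells, 1.87 in muscle, 6.73 in endothelial, 2.97 in Schwann and 7.37 in fibroblast cells.

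The class 5 ligands, which carry thrombospondin repeats, were muscle transcripts. Sema5a stood at 66.4 CPM in control muscle, 26.3 in fibroblasts, 9.63 in endothelial, 4.46 in Schwann and 4.31 in immune cells, and at 80.4, 20.4, 9.67, 5.45 and 2.74 CPM in the SM22-SmoM2 library. Sema5b stood at 44.6 CPM in control muscle, 4.27 in endothelial, 1.24 in fibroblast, 0.213 in Schwann and 0 in immune cells, and at 43.0, 3.36, 2.48, 0 and 0 CPM in the SM22-SmoM2 library. Of the class 6 ligands, which bind A-type plexins without a neuropilin, Sema6a and Sema6b were highest in endothelial cells. Sema6a measured 90.6 CPM in control endothelial cells, 7.65 in Schwann, 4.01 in fibroblast, 2.87 in immune and 2.65 in muscle cells, against 77.4, 6.44, 24.0, 2.74 and 3.74 CPM in the SM22-SmoM2 library. Sema6b measured 27.1 CPM in endothelial cells of the control and 21.9 CPM in those of the SM22-SmoM2 library, with 1.24 and 0.641 in fibroblasts, 1.49 and 2.48 in Schwann, 2.12 and 1.87 in muscle, and 4.31 and 0 CPM in immune cells.

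Sema6d, a ligand of plexin A1, was carried at similar levels by 3 lineages. Sema6d stood at 116 CPM in control muscle, 85.0 in Schwann, 77.2 in endothelial, 23.0 in immune and 6.05 in fibroblast cells, and at 86.0, 66.9, 88.3, 27.4 and 5.21 CPM in the SM22-SmoM2 library. Sema6c was low throughout, at 8.60 and 6.73 CPM in fibroblasts, at most 2.65 CPM in the other control lineages and, with 3 UMIs, 8.21 CPM in SM22-SmoM2 immune cells. Sema7a, which is held to the membrane by a lipid anchor, was an endothelial transcript. Sema7a measured 65.1 CPM in control endothelial cells, 12.9 in immune, 12.3 in Schwann, 8.96 in fibroblast and 3.72 in muscle cells, against 43.7, 2.74, 10.9, 12.4 and 1.87 CPM in the SM22-SmoM2 library.

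Among the co-receptors, Nrp1 (chr8:128358604-128503363, GRCm38), which also binds vascular endothelial growth factor A, was measured in every lineage with endothelial cells on top. Nrp1 stood at 514 CPM (499 to 530.2) in control endothelial cells, 204 in muscle, 126 in immune, 100.5 in fibroblast and 93.3 in Schwann cells, and at 440.2 (414 to 468), 289.9, 148, 114 and 83.2 CPM in the SM22-SmoM2 library. The lead of endothelial cells over muscle was 2.52-fold among control cells and 1.52-fold among SM22-SmoM2 cells. Nrp2 (chr1:62703285-62818695), the co-receptor tied to vascular endothelial growth factor C and lymphatic vessels, had the same leading lineage. Nrp2 stood at 219.6 CPM (209.6 to 230.0) in control endothelial cells, 92.0 in immune, 46.3 in Schwann, 42.6 in fibroblast and 41.4 in muscle cells, and at 158 (142 to 174), 115, 24.8, 60.7 and 59.9 CPM in the SM22-SmoM2 library. There the endothelial and immune levels of Nrp2 lay within counting error of each other (log2 ratio 0.46, interval -0.01 to 0.95).

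The signalling plexins divided in the same way. Plxnd1 (chr6:115954811-115995005), the receptor that endothelial cells use to read class 3 semaphorins, stood at 120.5 CPM (113 to 128) in control endothelial cells, 30.2 in immune, 25.0 in muscle, 22.3 in Schwann and 5.39 in fibroblast cells. In the SM22-SmoM2 library Plxnd1 stood at 125 (111 to 139.9), 16.4, 26.2, 24.8 and 3.77 CPM in those lineages. The A-type plexins did not share 1 leading lineage. Plxna1 measured 23.8 CPM in control fibroblasts, 20.2 in muscle, 10.2 in endothelial, 10.1 in immune and 5.10 in Schwann cells, against 18.9, 18.7, 10.9, 10.9 and 6.44 CPM in the SM22-SmoM2 library, and its fibroblast and muscle levels lay within counting error of each other. Plxna2 measured 58.3 CPM in control endothelial cells, 33.8 in Schwann, 10.1 in immune, 6.37 in muscle and 4.81 in fibroblast cells, against 49.2, 31.7, 2.74, 3.74 and 3.85 CPM. Plxna3 did not exceed 3.74 CPM in any lineage of either library and was at 1 and 0 UMIs in endothelial cells. Plxna4 measured 18.7 CPM in control Schwann cells, 14.1 in endothelial, 4.59 in fibroblast, 1.44 in immune and 1.06 in muscle cells, against 15.9, 7.15, 3.29, 0 and 0 CPM. The 3 antisense transcripts lie within the span of Plxna4 (chr6:32144268-32588192), and since the strand counted is not given, their reads and those of Plxna4 cannot be told apart with certainty.

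Of the B-type plexins, Plxnb2 was the most even member. Plxnb2 stood at 47.3 CPM in control muscle, 36.0 in endothelial, 35.3 in fibroblast, 28.7 in immune and 22.5 in Schwann cells, and at 44.9, 33.6, 34.0, 38.3 and 23.3 CPM in the SM22-SmoM2 library. Plxnb3 was nearly confined to Schwann cells, at 23.8 and 15.9 CPM, with at most 3.74 CPM (2 UMIs) in any other lineage. Plxnb1, the receptor of Sema4d, measured 11.3 CPM in control Schwann cells, 10.6 in muscle, 4.31 in immune, 3.05 in endothelial and 2.55 in fibroblast cells, against 4.95, 14.96, 2.74, 1.26 and 3.21 CPM in the SM22-SmoM2 library. Plxnc1, the receptor of Sema7a on leukocytes and melanocytes, was led by immune cells at 20.1 and 16.4 CPM and did not exceed 4.23 CPM elsewhere.

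Ligands and receptors were then matched by lineage, over 33 pairs of 17 ligands with a neuropilin or plexin taken from general knowledge of the family. The ligand and its receptor were highest in different lineages in most pairs, but the share among pairs of unrelated genes was not computed, so this is a description only. They were highest in the same lineage in 5 pairs of the control library and 6 of the SM22-SmoM2 library, and 19 pairs had the same leading lineages for both partners in both libraries. The 6 include Sema5a and Sema5b with Plxna3 in muscle, where Plxna3 had 2 UMIs in the SM22-SmoM2 library. The receptor was highest in endothelial cells in 14 pairs in either library. This reflects Nrp1, Nrp2, Plxnd1 and Plxna2, each of which stands in several pairs. Fibroblast Sema3a and Sema3d paired with endothelial Nrp1, Schwann Sema3b with endothelial Nrp1 and Nrp2, and Schwann Sema3e with endothelial Plxnd1. The same-lineage pairs included Sema3f with Nrp2 and Sema6a with Plxna2 in endothelial cells, Sema3a with Plxna1 in fibroblasts and Sema4c with Plxnb2 in muscle, in both libraries. The leads of Plxna1 in fibroblasts and of Sema4c in muscle over the next lineage were within counting error in both libraries. That of Plxnb2 in muscle was within it in the SM22-SmoM2 library. Endothelial Sema7a paired with immune Plxnc1. Between the libraries the leading lineage changed for 5 of the 17 ligands: from fibroblasts to Schwann cells for Sema3c, from endothelial to Schwann cells for Sema3g, from immune cells to fibroblasts for Sema4a, from Schwann cells to fibroblasts for Sema4g and from muscle to endothelial cells for Sema6d. Among the receptors it changed from Schwann cells to muscle for Plxnb1 and Plxna3. The share of all genes whose leading lineage changed was not computed, so these changes are a description only. Of the ligands and receptors that changed, only Sema3c had a lead over the next lineage beyond counting error in both libraries. Its log2 leads were 0.17 (0.03 to 0.31) in the control and 0.53 (0.30 to 0.75) in the SM22-SmoM2 library. Sema3g, Sema4a and Sema6d had such a lead in the control library only, Plxnb1 in the SM22-SmoM2 library only, and Sema4g and Plxna3 in neither. In control fibroblasts 70.2% of the Sema3c UMIs came from 282 cells led by Nov, Dlk1 and Wnt2, described below. The SM22-SmoM2 library held 5 such cells. Without these cells 543 control and 880 SM22-SmoM2 UMIs of Sema3c were left in fibroblasts, a log2 ratio of 0.29. Sema3c in the remaining control fibroblasts thus lay below its SM22-SmoM2 level, and so below the 118 CPM of control Schwann cells. The fibroblast lead in the control library was therefore not seen without these cells. An immune cluster led by Cd74 and H2-Aa had 39 control and 4 SM22-SmoM2 cells, and its part in the change of Sema4a was not tested.

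A co-receptor and its plexin must be in the same cell to act together, so cells with UMIs of both were counted after every cell had been thinned to 2500 UMIs. In endothelial cells 120 of 702 control cells, 17.1% (14.4 to 20.1%), held both Nrp1 and Plxnd1, and 45 of 270 SM22-SmoM2 cells, 16.7% (12.4 to 21.7%), did. In fibroblasts, at the same depth, the pair was found in 0.0960% and 0.0911% of cells, which is 1 cell in each library. Nrp1 and Nrp2 were found together in 25.8% (22.6 to 29.2%) and 18.5% (14.1 to 23.7%) of endothelial cells and in 1.63% and 1.73% of fibroblasts. Nrp1 and Plxna2 shared 9.26% (7.22 to 11.6%) and 5.56% (3.14 to 8.998%) of endothelial cells. Nrp1 and Plxna1 were closer between the lineages, at 1.42% (0.69 to 2.60%) and 1.48% (0.41 to 3.75%) of endothelial cells. In fibroblasts that pair was found in 0.960% (0.46 to 1.76%) and 0.546% (0.20 to 1.19%) of cells. The shares expected from the detection of each gene alone were not computed.

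In SM22-SmoM2 fibroblasts the membrane-bound Sema6a was 5.98-fold higher than in control fibroblasts, Sema4a, Sema4b and Sema5b were also at least 2-fold higher, and the secreted Sema3e had 2 UMIs against 64. Differences under 2-fold went both ways among the secreted ligands, with Sema3a, Sema3b and Sema3c lower and Sema3d and Sema3g higher, and the membrane-bound Sema5a was lower. Both neuropilins were higher by less than 2-fold. Of the 28 members with at least 20 UMIs in fibroblasts, 4 were at least 2-fold higher (14.3%), where 6.52% of the 13004 genes with as many UMIs were, and 1 was at least 2-fold lower (3.57%), where 6.07% of genes were. The median log2 ratio was 0.01 over these members and -0.06 over all genes, and 3 of the 31 (Sema4d, Sema4g and Plxnb3) were too low in fibroblasts for a ratio.

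**Figure D2:**
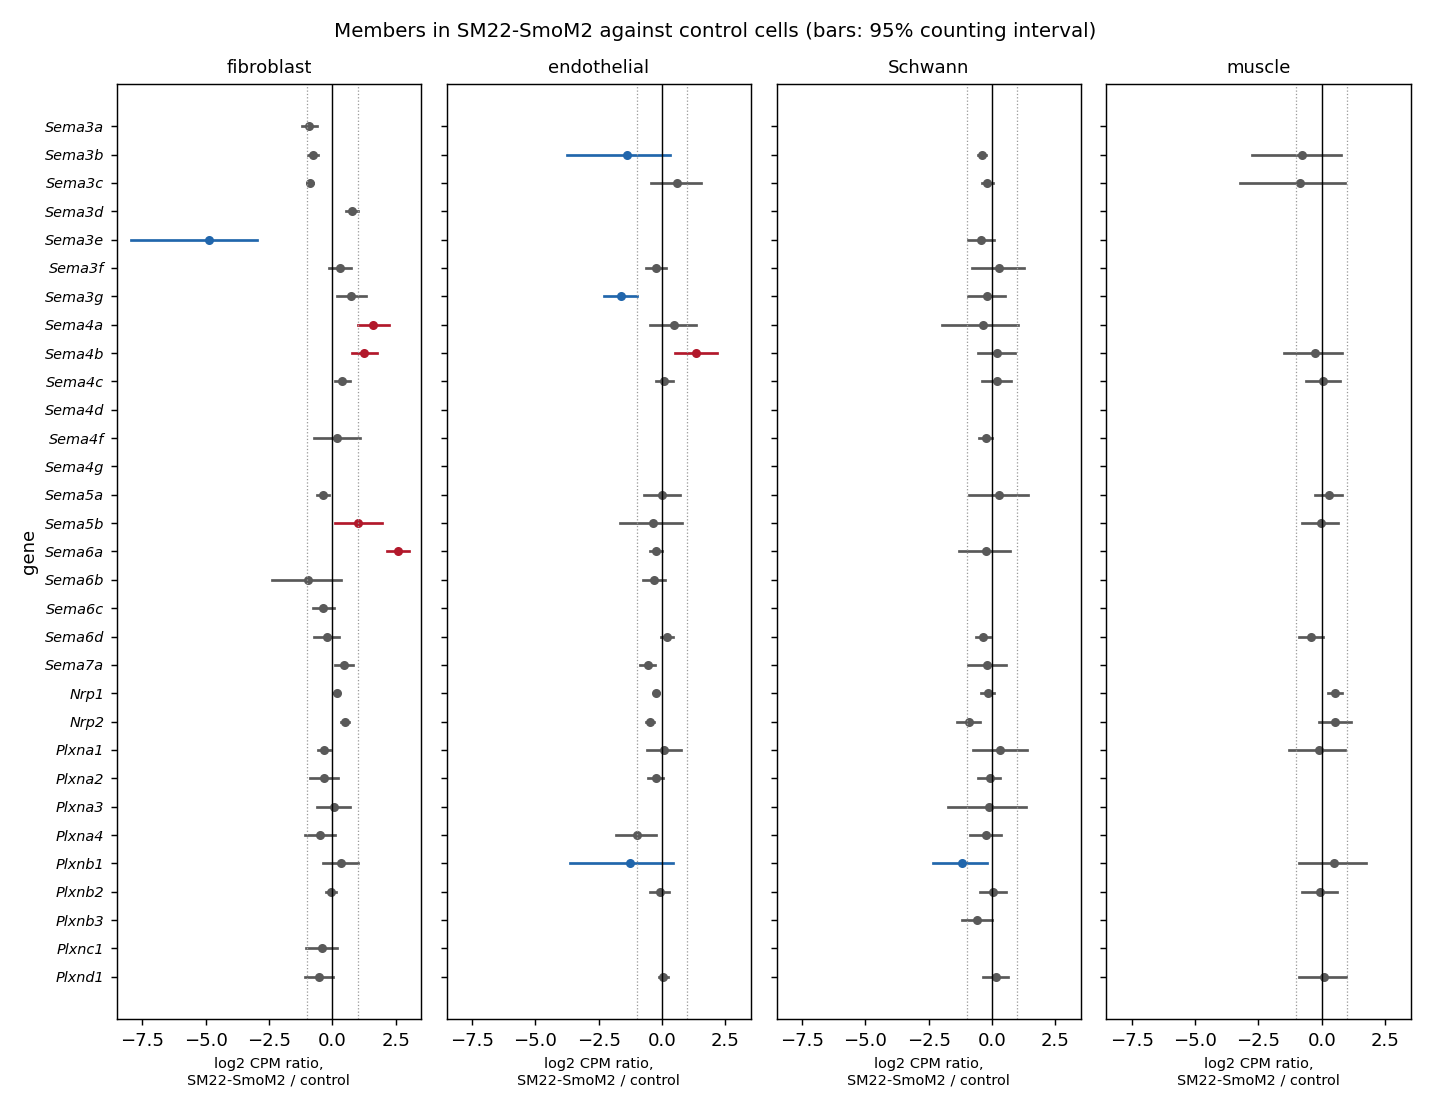
Log2 of SM22-SmoM2 over control CPM (x axis) for each member with at least 20 UMIs in that lineage (rows), with 95% counting intervals and dotted lines at a 2-fold change. Red and blue mark members at least 2-fold higher or lower, and in fibroblasts Sema6a at 2.58 and Sema3e at -4.86 lie farthest from 0.

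Sema6a had 55 UMIs in control and 299 UMIs in SM22-SmoM2 fibroblasts, 4.01 CPM (3.02 to 5.22) against 24.0 CPM (21.3 to 26.8), a log2 ratio of 2.58 (2.16 to 3.02). The intervals of the libraries did not overlap. The ratio lay in the same direction in male cells, at 3.47 and 23.8 CPM, and in female cells, at 4.62 and 43.2 CPM. Sema4a had 33 and 92 UMIs and a log2 ratio of 1.62 (1.03 to 2.24), and Sema4b had 53 and 116 UMIs and a log2 ratio of 1.27 (0.79 to 1.76). Sema5b passed the 2-fold line only just, with 17 and 31 UMIs and a log2 ratio of 1.00 (0.11 to 1.95), and lay under it in most alternatives, at 0.55 to 1.06 over all of them that gave a value. Sema7a (0.47, interval 0.12 to 0.82, and -1.01 in female cells) and Sema4c (0.40, 0.09 to 0.71) were higher by less, whereas Sema5a was lower (-0.36, -0.60 to -0.13). The intervals of Sema6b (17 and 8 UMIs), Sema6c, Sema6d and Sema4f included 0.

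The class 3 genes include 4 neighbours on chromosome 5 whose ratios in fibroblasts lay on different sides of 0. They are Sema3d (chr5:12383385-12588948), Sema3a (chr5:13125414-13602565), Sema3e (chr5:14025276-14256689) and Sema3c (chr5:17574281-17730268), all on the plus strand. The log2 ratio of Sema3d was 0.78 (0.55 to 1.02), from 256 and 401 UMIs. That of Sema3a was -0.90 (-1.19 to -0.62), from 312 and 152 UMIs, and ranged from -2.28 in female to -0.46 in male cells. Sema3e had 64 and 2 UMIs, a log2 ratio of -4.86 (-7.94 to -2.95), and Sema3c had 1820 and 905 UMIs and a log2 ratio of -0.87 (-0.99 to -0.76). The upstream sequences of Sema3d, Sema3a and Sema3e are shown because these neighbours ended on opposite sides of 0. They are the 250 bases before the RefSeq start (GRCm38.p6, plus strand), at chr5:12382916-12383165, chr5:13396534-13396783 and chr5:14025026-14025275, the Sema3a window lying inside the longer annotated span of that gene, and capitals mark the GC box.
Sema3d: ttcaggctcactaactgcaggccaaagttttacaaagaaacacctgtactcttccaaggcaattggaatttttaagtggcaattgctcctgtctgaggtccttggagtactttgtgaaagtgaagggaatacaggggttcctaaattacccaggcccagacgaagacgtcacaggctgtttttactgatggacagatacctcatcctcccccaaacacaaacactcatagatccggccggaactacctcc
Sema3a: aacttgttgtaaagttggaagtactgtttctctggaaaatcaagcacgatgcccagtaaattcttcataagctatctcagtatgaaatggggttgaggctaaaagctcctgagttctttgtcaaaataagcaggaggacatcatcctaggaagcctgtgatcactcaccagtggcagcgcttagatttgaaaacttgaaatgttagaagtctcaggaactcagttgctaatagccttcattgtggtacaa
Sema3e: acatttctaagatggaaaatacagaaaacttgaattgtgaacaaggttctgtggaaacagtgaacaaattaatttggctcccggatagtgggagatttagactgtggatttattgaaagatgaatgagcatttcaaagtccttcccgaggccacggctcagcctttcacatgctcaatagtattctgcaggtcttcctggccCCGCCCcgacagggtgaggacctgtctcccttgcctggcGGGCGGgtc

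In these 250-base windows 3 motifs were searched on both strands, the GLI-type site GACCACCCA, the GC box GGGCGG and the TATA-type word TATAAA, and no match overlapped another in the windows shown. The Sema3e window held 2 GC boxes and the Sema3d and Sema3a windows held 0, and neither of the other motifs was found in any of the 3. Among 37 windows of 26 member genes, 27 (73.0%) held GGGCGG, and 0 held GACCACCCA or TATAAA. Among all 32851 windows these letters were found in 32.7%, 0.225% and 12.4%. A match is a description of the letters and not of a bound site.

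Most Sema3c and Sema3e UMIs of control fibroblasts came from a population that was nearly absent from the SM22-SmoM2 library, and without it Sema3c was no longer lower there while Sema3e still was. Fibroblasts led by Nov, Dlk1 and Wnt2 formed a pair of sub-clusters with 171 and 111 control cells and 5 and 0 SM22-SmoM2 cells, and a cluster mostly of 1 library may be that library rather than a cell type. These 282 cells were 27.1% of control fibroblasts and held 70.2% of the Sema3c UMIs, 78.1% of the Sema3e UMIs (50 of 64) and 41.0% of the Sema3d UMIs, but 4.81% of the Sema3a UMIs. Sema3c measured 336 CPM (315 to 359) and 229.7 CPM (207 to 254) in them. Without them, a setting added once the data were known, the log2 ratio of Sema3c turned to 0.29 and that of Sema3e, with 14 and 2 UMIs left, was -3.21, while Sema3a moved to -1.37, Sema3d to 1.00 and Sema6a to 2.69, and Sema5b lost its 2-fold call at 0.55.

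The same genes were compared within the 3 sub-clusters that held at least 40 cells of each library. In the Crabp1+ sub-cluster (281 and 114 cells) Sema3c stood at 38.9 and 42.9 CPM, a log2 ratio of 0.14, and in the Mmp3+ sub-cluster (223 and 116 cells) at 66.9 and 80.6 CPM, a log2 ratio of 0.27. In the cycling sub-cluster (47 and 42 cells) Sema3c was lower, at 172 and 67.4 CPM, a log2 ratio of -1.35 (-1.89 to -0.84). Sema3a stood at 63.2 and 40.1 CPM in the Crabp1+ sub-cluster, a log2 ratio of -0.66, and Sema3b at 78.3 and 55.1 CPM, a log2 ratio of -0.51. In the Mmp3+ sub-cluster the intervals of Sema3a (-0.54, -1.58 to 0.40) and Sema3b (-0.16, -0.52 to 0.19) included 0. Sema3b was also lower in the cycling sub-cluster (31 and 8 UMIs, -1.37, -2.70 to -0.22). In cycling cells, by contrast, Sema3a was higher in the SM22-SmoM2 library, at 20.2 and 47.2 CPM, with 18 and 28 UMIs and a log2 ratio of 1.22 (0.32 to 2.16). Sema6a had 2 and 19 UMIs there, a log2 ratio of 3.83 (1.78 to 6.98). Its intervals in the Crabp1+ (7 and 4 UMIs, 0.50, -1.72 to 2.47) and Mmp3+ (14 and 3 UMIs, -1.26, -3.70 to 0.58) sub-clusters included 0. Sema4b had log2 ratios of 0.08 in Crabp1+, 0.27 in Mmp3+ and 1.00 in cycling cells. Sema4a had log2 ratios of 2.04 in Crabp1+ and -1.36 in Mmp3+ cells and too few UMIs in cycling cells. All these values of Sema4a and Sema4b rested on 13 or fewer UMIs in a library, and their intervals included 0.

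The neuropilins of fibroblasts were measured with more UMIs and smaller ratios. Nrp1 had 1379 and 1417 UMIs and a log2 ratio of 0.18 (0.07 to 0.28), and Nrp2 had 584 and 758 UMIs and a log2 ratio of 0.51 (0.36 to 0.67). Within the Crabp1+ sub-cluster Nrp1 was lower in SM22-SmoM2 cells (330 and 89 UMIs, -0.59, -0.94 to -0.25). Its intervals in the Mmp3+ and cycling sub-clusters included 0, as did those of Nrp2 in each of these sub-clusters. The values differed with the sex of the cells. In male fibroblasts Nrp1 stood at 93.8 and 121 CPM, and in female fibroblasts at 128 and 45.3 CPM, the last from 48 cells and 21 UMIs. Nrp2 stood at 43.7 and 62.1 CPM in male and at 43.6 and 36.7 CPM in female cells. With every cell thinned to 2500 UMIs the log2 ratio of Nrp1 was -0.02. Among fibroblast plexins, Plxna1 was lower (326 and 236 UMIs, log2 ratio -0.33, interval -0.58 to -0.08), and Plxnb2, with 485 and 424 UMIs, had a log2 ratio of -0.06 (-0.25 to 0.13). The intervals of the 6 other plexins with a ratio (Plxna2, Plxna3, Plxna4, Plxnb1, Plxnc1 and Plxnd1) included 0.

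Of 40 other genes of the pathway (cytoplasmic effectors of plexins, collapsin response mediators and their kinase, the cofilin pathway, vascular endothelial growth factors that bind neuropilins, and other receptors), 35 had enough UMIs in fibroblasts. Of these, 1 was at least 2-fold higher and 5 were at least 2-fold lower (2.86% and 14.3%, where 6.52% and 6.07% of all genes were), with a median log2 ratio of -0.10 against -0.06 over all genes. The higher gene was Vegfa, the growth factor that neuropilin 1 binds, at 11.7 and 44.3 CPM, a log2 ratio of 1.93 (1.67 to 2.19). Limk2, a kinase of cofilin, was next at 8.02 and 14.98 CPM (0.90, 0.56 to 1.26), followed by Arhgef11, a RhoA exchange factor that binds B-type plexins (0.76, 0.11 to 1.44). The lowest were Met, a receptor that can associate with B-type plexins, with 34 and 7 UMIs (-2.14, -3.56 to -0.95), Dpysl3, a collapsin response mediator, at 227 and 73.2 CPM (-1.63, -1.74 to -1.52), and Robo4, a guidance receptor, with 19 and 6 UMIs (-1.53, -3.14 to -0.15).

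Within the SM22-SmoM2 fibroblasts the members differed between Hh-active-like and other sub-clusters, as defined below. Sema6a and Sema4a were among those higher in Hh-active-like cells, and Sema3a and Sema3b among those lower. Fibroblasts were clustered again without the members and without the Hh pathway genes. Sub-clusters with at least 3 of Gli1, Gli2, Ptch1 and Hhip raised were called Hh-active-like, and 1 sub-cluster that also had more than 6 of 12 genes known from the dermal papilla raised was called Hh-active II-like. The SM22-SmoM2 library had 772 Hh-active-like cells, 46 Hh-active II-like cells and 280 other fibroblasts, and the control library 67, 0 and 975. The II-like cells, led by a (agouti), Ibsp and Cd24a, were taken as fibroblasts from that gene list. By the lineage markers alone their cluster scored highest for the skeletal muscle list, with 1 of its 4 markers past the threshold, and so had no lineage name. Their median depth was 4530.5 UMIs against 10640.5 in Hh-active-like and 12388.5 in other cells.

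**Figure D3:**
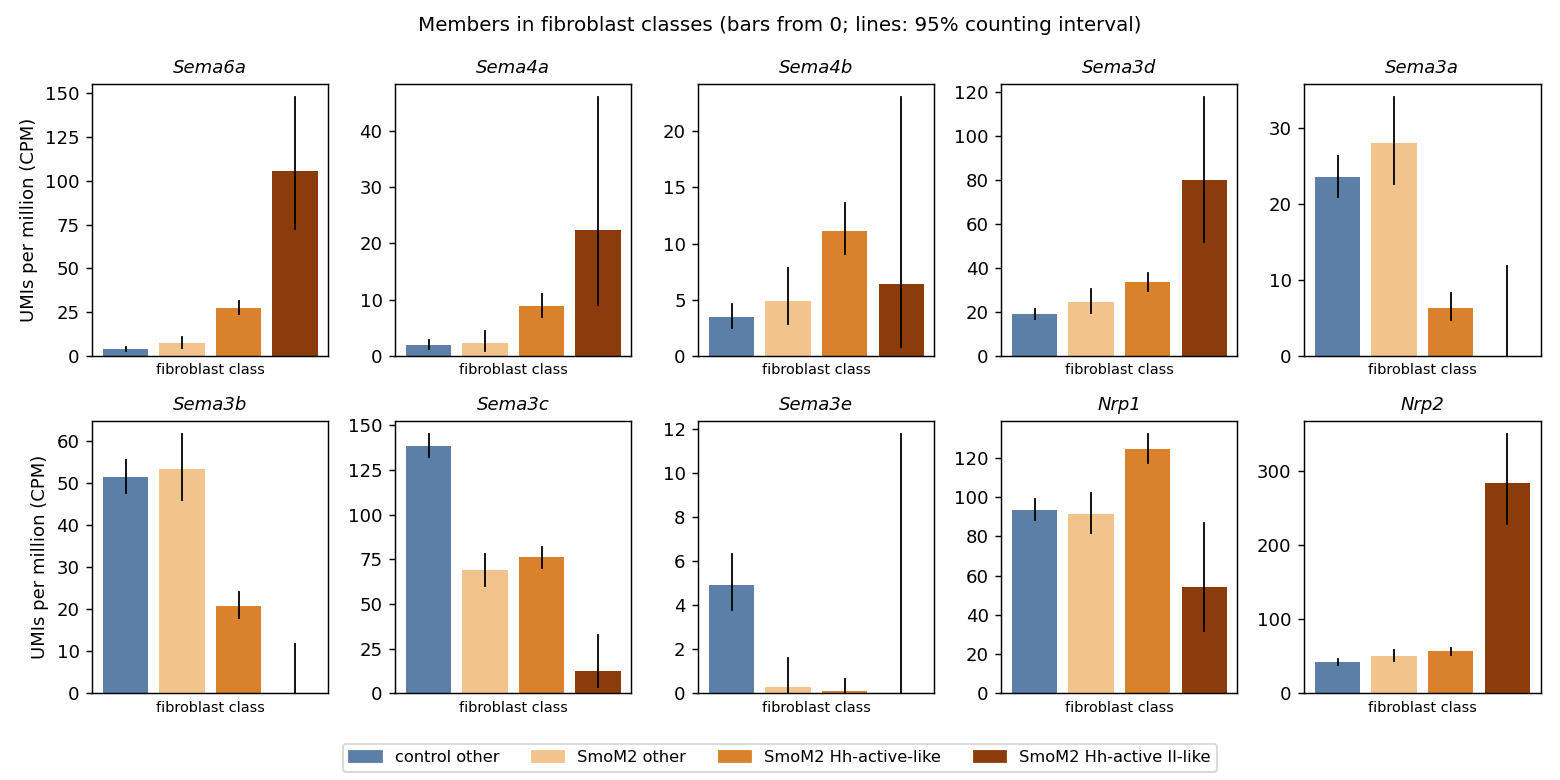
CPM (y axis, from 0) of 10 members in other fibroblasts of the control library and in other, Hh-active-like and Hh-active II-like fibroblasts of the SM22-SmoM2 library, with 95% counting intervals as lines. Sema6a, Sema4a and Sema3d step up from left to right, Sema3a and Sema3b are lowest in the Hh-active classes, and Nrp2 is highest in the II-like cells at 284 CPM.

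Of the 26 members with at least 20 UMIs in these cells, 6 were at least 2-fold higher in Hh-active-like than in other SM22-SmoM2 fibroblasts (Plxna3, Sema4a, Sema4b, Sema5b, Sema6a and Sema7a, 23.1%, where 8.92% of 11698 genes were). There were 5 at least 2-fold lower (Plxna4, Plxnc1, Sema3a, Sema3b and Sema3f, 19.2%, where 6.0% of genes were), and the medians were -0.27 over members and 0.00 over all genes. The classes are clusters of the same cells of 1 library, so these are descriptions. Sema6a stood at 3.79 CPM in other control fibroblasts, 7.49 in other SM22-SmoM2 fibroblasts, 27.6 in Hh-active-like and 105 CPM (72.6 to 148) in II-like cells. Its log2 ratio was 1.88 (1.29 to 2.52) for Hh-active-like over other cells and 1.93 (1.36 to 2.46) for II-like over Hh-active-like cells. Hh-active-like cells held 80.3% of the Sema6a UMIs of SM22-SmoM2 fibroblasts and were 70.3% of the cells, and II-like cells held 11.04% of them and were 4.19% of the cells. Among the other fibroblasts alone the log2 ratio of SM22-SmoM2 over control was 0.98 (0.24 to 1.70). Of the 26 Sema6a UMIs of other SM22-SmoM2 fibroblasts, however, 19 came from the 42 cycling cells, 4 from 114 Crabp1+ cells and 3 from 116 Mmp3+ cells. The ratio thus does not describe other fibroblasts in general.

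The remaining higher members rested on fewer UMIs. Sema4a had 8 UMIs in other, 77 in Hh-active-like and 7 in II-like cells, at 2.31, 8.85 and 22.4 CPM, and Hh-active-like cells were higher by a log2 ratio of 1.94 (0.89 to 3.20). Sema4b, with 17, 97 and 2 UMIs, had a log2 ratio of 1.19 (0.43 to 2.02), and Sema7a, with 21, 129 and 5 UMIs, one of 1.29 (0.62 to 2.03). The interval of Plxna3 (1.09, -0.19 to 2.64) included 0, and that of Sema5b (1.73, 0.02 to 4.10) came close to it.

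The secreted ligands Sema3a and Sema3b were lower in the Hh-active classes. Sema3a stood at 23.5 CPM in other control, 28.0 in other SM22-SmoM2 and 6.32 CPM in Hh-active-like fibroblasts, a log2 ratio of -2.14 (-2.65 to -1.65) between the last 2, and had 0 UMIs in II-like cells, where 3 UMIs are 9.58 CPM and so a level like that of the Hh-active-like cells was not detectable. Among the other fibroblasts Sema3a differed between libraries by no more than counting error (0.25, -0.09 to 0.58). Of the 97 Sema3a UMIs of other SM22-SmoM2 fibroblasts, 56 came from 114 Crabp1+ cells, 28 from 42 cycling cells and 13 from 116 Mmp3+ cells. Crabp1+ cells also held 69.9% of the Sema3a UMIs of control fibroblasts and were 27.0% of those cells. The parts of sub-cluster and Hh state in the Sema3a difference were not tested. Sema3b stood at 51.3 CPM in other control, 53.3 in other SM22-SmoM2 and 20.8 CPM in Hh-active-like fibroblasts, a log2 ratio of -1.36 (-1.66 to -1.05) between the last 2. It had 0 UMIs in II-like cells and was lower there than in Hh-active-like cells. With 3 UMIs in place of 0 that log2 ratio was -1.12, but its interval reached up to -0.81, so a 2-fold difference was not beyond counting error. Sema3d differed from its neighbour, at 18.9, 24.5, 33.5 and 79.8 CPM through the 4 classes, with 25 UMIs in the II-like cells and a log2 ratio of 1.25 (0.60 to 1.85) over Hh-active-like cells. Sema3c was as low in other SM22-SmoM2 fibroblasts (68.9 CPM) as in Hh-active-like cells (76.1 CPM), against 139 CPM in other control fibroblasts, which hold the Dlk1+ and Wnt2+ cells.

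Nrp1 and Nrp2 went apart between the Hh classes. Nrp1 was 124.5 CPM in Hh-active-like, 91.4 in other SM22-SmoM2, 93.5 in other control and 54.3 CPM in II-like fibroblasts. Nrp2 was 56.7, 50.7, 42.1 and 284 CPM (228 to 349.8) in those classes. The II-like cells were thus lower than Hh-active-like cells in Nrp1 (-1.20, -1.98 to -0.51) and higher in Nrp2 (2.33, 1.98 to 2.65). They were also higher in Sema4c (63.9 against 15.1 CPM, log2 ratio 2.08, interval 1.33 to 2.77), Sema5a (1.29, 0.34 to 2.11), Plxnd1 (5 UMIs, 2.31, 0.58 to 3.70) and Sema3g (7 UMIs, 2.25, 0.84 to 3.42), and lower in Sema3c (4 UMIs, -2.57, -4.45 to -1.21).

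The Hh-active-like sub-clusters were themselves not alike. In 3 of them, led by Penk and Lepr, by Egfl6 and Igfbp2, and by cycling genes, Sema6a stood at 43.7, 46.6 and 38.7 CPM in SM22-SmoM2 cells and Nrp1 at 38.7, 50.3 and 62.2 CPM. In the other 2, led by Areg and Mmp13 and by Mest and Cldn1, Sema6a stood at 11.9 and 14.3 CPM and Nrp1 at 192 and 198 CPM. The 3 sub-clusters with more Sema6a thus had less Nrp1 than the other 2. Nrp2 was highest in the Egfl6+ (106 CPM) and cycling (97.9 CPM) sub-clusters and 18.3 CPM in the Mest+ sub-cluster.

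In SM22-SmoM2 endothelial cells the vessel-borne semaphorins Sema3g and Sema7a and both neuropilins were lower, while Plxnd1 differed by no more than counting error. Of the 21 members with at least 20 UMIs, 1 was at least 2-fold higher (Sema4b, 4.76%, where 1.72% of 11560 genes were) and 3 were at least 2-fold lower (Sema3g, Sema3b and Plxnb1, 14.3%, where 3.13% of genes were). The medians were -0.23 over members and -0.08 over all genes. Sema3g had 243 UMIs (29.6 CPM, 26.02 to 33.6) in control and 23 UMIs (9.67 CPM, 6.13 to 14.51) in SM22-SmoM2 cells, a log2 ratio of -1.62 (-2.30 to -0.996). Sema3b and Plxnb1 rested on 3 UMIs each in the SM22-SmoM2 library, and their intervals included 0 (-3.75 to 0.32 and -3.64 to 0.44). Sema3b was led by Schwann cells, and the Schwann markers in endothelial cells also moved with the library, at a sum of 51.6 and 18.5 CPM. Their part in the Sema3b ratio was not tested. Sema4b had 31 and 23 UMIs and a log2 ratio of 1.36 (0.51 to 2.18), and Plxna4 was just short of the 2-fold line at -0.98 (-1.81 to -0.24). With every cell thinned to 2500 UMIs the ratio of Sema3g was -0.66 and 0 members with enough UMIs passed the 2-fold line.

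The receptors of endothelial cells had deeper counts. Nrp1, with 4219 and 1047 UMIs, had a log2 ratio of -0.22 (-0.32 to -0.13), and Nrp2, with 1801 and 375 UMIs, one of -0.48 (-0.64 to -0.32). Plxnd1, with 988 and 297 UMIs, had a log2 ratio of 0.05 (-0.14 to 0.24). Both co-receptors were thus lower, while Plxnd1 over all endothelial cells was not measurably different. Of the A-type plexins, Plxna4 was lower (116 and 17 UMIs, -0.98, -1.81 to -0.24), and the interval of Plxna1 included 0. Sema7a was lower (534 and 104 UMIs, -0.57, -0.89 to -0.27), and the intervals of Sema6a, Sema6b, Sema6d, Sema3f, Sema4c, Plxna2 and Plxnb2 included 0.

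**Figure D4:**
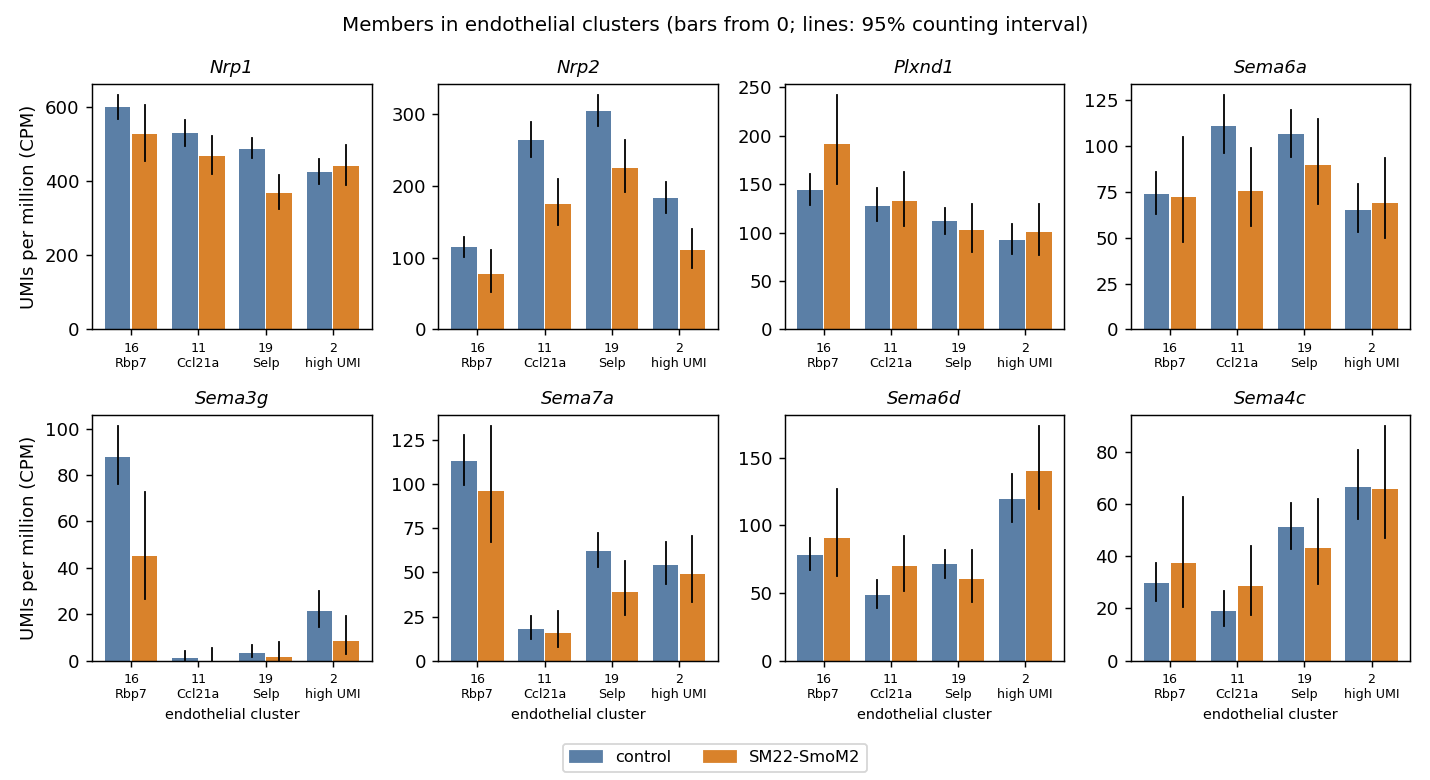
CPM (y axis, from 0) of 8 members in the 4 endothelial clusters, named by a leading gene, in control (blue) and SM22-SmoM2 (orange) cells, with 95% counting intervals as lines. Sema3g is highest in the Rbp7+ cluster and lower in its SM22-SmoM2 cells, and Nrp2 is lower in SM22-SmoM2 cells of all 4 clusters.

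Endothelial cells formed 4 clusters, which differed in Sema3g, Sema7a and Nrp2 among other members. The Rbp7+ and Gpihbp1+ cluster (180 control and 43 SM22-SmoM2 cells) had the highest levels of Sema3g and Sema7a. Sema3g stood there at 87.9 and 45.3 CPM, against 1.10 and 0 CPM in the Ccl21a+ and Ackr1+ cluster (199 and 93 cells), 3.54 and 1.37 CPM in the Selp+ cluster (230 and 89 cells) and 21.3 and 8.24 CPM in a cluster of cells with many UMIs (93 and 45 cells). Within the Rbp7+ cluster the log2 ratio of Sema3g was -0.96 (-1.76 to -0.24), smaller than over all endothelial cells, of which this cluster held 180 of 702 in the control and 43 of 270 in the SM22-SmoM2 library. Sema7a stood at 113 and 96.0 CPM in the Rbp7+ cluster, 62.2 and 38.9 in the Selp+, 54.1 and 49.4 in the high-UMI and 17.9 and 15.7 CPM in the Ccl21a+ cluster, and its log2 ratio of -0.68 in the Selp+ cluster was the only one with an interval (-1.32 to -0.08) below 0.

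Nrp2 was ordered the other way, highest in the Selp+ and Ccl21a+ clusters. Nrp2 stood at 304 and 225 CPM in the Selp+ cluster, 263 and 175 CPM in the Ccl21a+ cluster, 183 and 110.3 CPM in the high-UMI cluster and 114 and 77.3 CPM in the Rbp7+ cluster. Its log2 ratio lay between -0.73 and -0.43 in the 4 clusters. Nrp1 was more even, at 598 and 525 CPM in the Rbp7+ cluster and 424 and 439.7 CPM in the high-UMI cluster, and its log2 ratio ranged from -0.40 (-0.60 to -0.21) in the Selp+ cluster to 0.05. Plxnd1 stood at 144 and 192 CPM in the Rbp7+ cluster, with a log2 ratio of 0.41 (0.03 to 0.79), and between 92.8 and 132 CPM in the 3 other clusters. Lymphatic markers moved with the library: all 5 were detected, their sum was 1160 CPM against 200.1 CPM in the SM22-SmoM2 library, most of it Ccl21a, and 8 and 2 cells held at least 2 of Prox1, Lyve1, Flt4 and Pdpn. Leaving those cells out, a choice made after the data had been seen, left the endothelial count of 2-fold members at 4.

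In Schwann cells, which ensheath the nerves of the dermis, Sema3b, Nrp2 and Plxnb1 were lower in the SM22-SmoM2 library, and most other members had intervals that included 0. Of 23 members, 0 were at least 2-fold higher, where 1.92% of 10574 genes were, and Plxnb1 alone was at least 2-fold lower (4.35%, where 3.54% of genes were), with 53 and 10 UMIs and a log2 ratio of -1.19 (-2.33 to -0.20). Sema3b, with 1291 and 426 UMIs, had a log2 ratio of -0.38 (-0.54 to -0.22), and Nrp2, with 218 and 50 UMIs, one of -0.90 (-1.38 to -0.45). Sema6d (-0.35, -0.64 to -0.06) and Plxnb3 (-0.59, -1.20 to -0.01) were also lower, and the intervals of Sema3c, Sema3e, Sema4f and Nrp1 included 0. The medians were -0.18 over members and -0.08 over all genes. Sema3b was uneven within the lineage, at 370.4 and 285 CPM in the cluster led by Sostdc1, 213 and 174 CPM in the Gfra3+ cluster and 167 and 146 CPM in the cycling cluster. Melanocyte markers moved with the library here, 4 of 4 detected at a sum of 109 and 21.8 CPM, and their part in these ratios was not tested.

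In muscle 0 of 13 members were at least 2-fold higher, where 2.10% of 8680 genes were, and 0 were at least 2-fold lower, where 6.54% were. Nrp1 was higher, with 385 and 155 UMIs and a log2 ratio of 0.50 (0.23 to 0.78). Nrp2 had 78 and 32 UMIs and an interval that included 0 (0.53, -0.11 to 1.14), as did Sema6d (-0.43, -0.92 to 0.04), Sema5a (0.28, -0.26 to 0.79) and Sema5b (-0.05, -0.78 to 0.63). With 94 cells in the SM22-SmoM2 library, Nrp1 was the only one of these 13 whose interval left out 0. Below the minimum of 20 UMIs, Sema3d had 1 and 5 UMIs in muscle and a log2 ratio of 4.14 (0.98 to 9.70). Among immune cells, 7 members had at least 20 UMIs, and all 7 intervals included 0. Sema4a, below that minimum with 17 and 1 UMIs, had a log2 ratio of -3.16 (-8.54 to -0.48) in immune cells. Immune cells lay in 2 clusters, 1 with 42 control and 29 SM22-SmoM2 cells and 1, led by Cd74 and H2-Aa, with 39 and 4. In the latter Sema4a had 0 UMIs in the SM22-SmoM2 library, and its interval reached up to 0.88. The part of this difference in cells in the Sema4a ratio was not tested.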

How the data were processed

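Single-cell RNA sequencing of sorted Tomato+ dermal cells gave 1 control library and 1 SM22-SmoM2 library. The authors deposited raw UMI counts, whole numbers for each gene in each cell, made with bcl2fastq and Cell Ranger from Chromium v2 libraries aligned to mm10 (GRCm38), with duplicate reads removed by UMI. The version of Cell Ranger, its annotation and the strand counted are not given in the sources used here. The deposited barcode list covers the whole kit, so shared barcodes could not be counted. The IDs of all 34 member rows were found, with the same names, in the GENCODE annotation of GRCm38, from which positions were taken.

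Cells with under 200 genes or over 10% mitochondrial UMIs were left out (22 control and 10 SM22-SmoM2 cells). Each cell was set to 10000 UMIs before the log, the 2000 most variable genes were reduced to 20 principal components, and k-means (scikit-learn 1.9.0, 50 starts) divided all cells with K = 20 and then the fibroblasts with K = 15, leaving out the members and the Hh pathway genes so that they did not shape the clusters. To be named, a cluster had 3 markers that reached both 10 CPM and 1.5 times their median over clusters, or more than 6 of 12 dermal papilla genes. Some genes used in naming clusters are not reported here, and the Hh-active-like sub-clusters met their rule without them. Sub-clusters of fibroblasts were set aside as mixed when fibroblast markers were outnumbered by those of another lineage among the top 10 genes (65 and 2 cells), and 17 keratinocytes were not compared. No doublets were removed. UMIs were summed per lineage and library and divided by their total (CPM). Intervals are exact Poisson, conditional binomial for ratios and Clopper-Pearson for shares (scipy 1.17.1). A ratio against 0 UMIs used 3 UMIs, and none is given with 3 or fewer UMIs in both. A member counted as changed at a log2 ratio of 1 or -1 with at least 20 UMIs over both libraries. The ratio code was tested on simulated data.

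All members are named. Those with at least 100 UMIs, or called in a lineage, are given in every lineage, and of the pathway list the 3 highest and 3 lowest in fibroblasts. The members, the gene lists and the comparisons were chosen with earlier results of these data known, and the ligand and receptor pairs are from general knowledge. Alternatives were another mitochondrial filter, K, Leiden clustering (leidenalg 0.10.2), members kept in clustering, doublet removal with Scrublet (scanpy 1.11.5), cells of 1 sex, thinning to 2500 UMIs, mean CPM per cell, median-of-ratios scaling and other UMI minimums. Sequences are from RefSeq (GRCm38.p6), and 26 member genes had a promoter window.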

Additional observations from a re-analysis of the deposited data

Results flagged for a closer look

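For 4 members the intervals of SM22-SmoM2 over control lay above 0 in one lineage and below 0 in another. With 1 library per condition the difference between lineages was not tested. The share of all genes that meet this rule was not computed, so the 4 members are a description and not a trait of the family. Nrp1 had log2 ratios of 0.18 in fibroblasts and 0.50 in muscle, and of -0.22 in endothelial cells. Nrp2 had a log2 ratio of 0.51 in fibroblasts, -0.48 in endothelial cells and -0.90 in Schwann cells. Sema3g had a log2 ratio of 0.75 in fibroblasts and -1.62 in endothelial cells, and Sema7a one of 0.47 in fibroblasts and -0.57 in endothelial cells. The positive fibroblast values were not stable in every setting, whereas the negative endothelial values of these genes kept their sign in all settings tried. Within fibroblast sub-clusters Nrp1 was lower in Crabp1+ cells (-0.59, -0.94 to -0.25) and Sema7a in Mmp3+ cells (31 and 4 UMIs, -1.99, -3.95 to -0.49).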

How the results depend on the processing

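Of 84 alternative counts of members, 72 stayed within 1.5 times the value reported, and of 288 alternative log2 ratios 252 moved by less than their counting interval, 36 moved beyond it and 0 reversed a 2-fold call. The fibroblast count of 5 and the highest-lineage count of 15 kept within 1.5 times in every alternative, but not with the same members in fibroblasts. Of 13 alternatives that gave a value, Sema5b was under the 2-fold line in 11 (0.55 to 0.96), and Sema3a was past it in 7 of 14 (-2.28 to -1.10: K = 12, K = 30, members kept in clustering, doublets left out, thinning, female cells, and the Dlk1+ and Wnt2+ sub-clusters left out). The muscle count of 0 became 1 with K = 12, with Leiden clustering, with male cells alone and with mean CPM per cell, and 4 with no UMI minimum. The Schwann count of 1 became 3 in female cells alone, 0 after thinning and 2 with no minimum, the endothelial count of 4 became 0 after thinning, 7 with no minimum and 2 with at least 50 UMIs, and the Hh-active-like count of 11 became 7 after thinning. Fibroblast log2 ratios ranged from 2.41 to 3.23 for Sema6a, 1.37 to 1.69 for Sema4a, 0.69 to 1.51 for Sema4b and -5.84 to -3.21 for Sema3e, and the endothelial one of Sema3g from -2.18 to -0.66. That of Nrp1 in fibroblasts was 0.37 in male and -1.497 in female cells and -0.02 after thinning, and that of Sema3g in fibroblasts -0.08 after thinning. In female cells the fibroblast ratios of Nrp2 and Sema7a were -0.25 and -1.01, and the muscle ratio of Nrp1 was -0.83. The cause was not tested. The ratio of Sema3c lay between -1.04 in male cells and 0.29 without the Dlk1+ and Wnt2+ sub-clusters, was 0.17 in female cells, and was between -0.28 and -0.21 in the 4 settings (K = 12, K = 30, members kept in clustering, doublets left out) in which a sub-cluster led by Nov, Wnt2 and Ccl21a was left out as mixed. Sema3d then lay between 1.03 and 1.06, past the 2-fold line. Median-of-ratios scaling shifted all genes by between -0.11 in muscle and -0.06 in fibroblasts. Scrublet marked 6 and 10 cells, too few to judge doublets, and 143 and 45 cells held both Xist and Y-linked UMIs. No paired analysis was possible because each condition is 1 library and the labels give no replicate numbers. Intervals cover counting error only, so differences between mice, sorts or library preparations cannot be told apart from those between genotypes, and immune and muscle cells were too few to show changes under 2-fold in most members.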
